A study of Mus musculus with 2 samples.

Results

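The genes described here are those of the mouse major histocompatibility complex (MHC, called H2 in the mouse) and the genes that load peptides onto its products. They were chosen by symbol alone: every symbol of the form H2- followed by a capital letter with no further punctuation, together with B2m, Tap1, Tap2, Tapbp, Cd74, Ciita and Nlrc5. The rule found 42 of 55536 annotated genes, 38 of them on chromosome 17, and 35 of the 42 are annotated as protein-coding. H2-Ke6 matches by symbol only, since it encodes a hydroxysteroid dehydrogenase. The tissue was hippocampus, labelled as a layer of hippocampus, from female B6CASTF1/J mice aged 25 days, which carry a C57BL/6 and a wild-derived CAST genome. There was a single group with 2 libraries of ribosomal-RNA-reduced total RNA, each from 300 ng with ERCC spike-ins. They have separate biosamples but the same donor entry, so their spread may be technical in part. No treatment or second group was present. RNA from the CAST alleles was read against the mm10 reference, which has C57BL/6 sequence, and no value here tells how much of it was lost.

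MHC class I proteins hold peptides made in the cell by the proteasome and show them to CD8 T cells and natural killer cells. A class I molecule is a heavy chain from the H2 complex with beta-2 microglobulin as its light chain, and it receives its peptide from the TAP transporter with the help of tapasin. Class II proteins show peptides from taken-up material to CD4 T cells and are mainly made by specialised immune cells, in brain by microglia and border macrophages. Class I proteins have also been studied in neurons, where they are linked to the pruning of synapses.

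The heavy chain genes arose by duplication, and where their sequences stay alike, reads can be hard to place. The exon that encodes one side of the peptide groove shows the likeness. Below are the first 60 bases of that exon in H2-K1 and the best-matching ungapped 60 bases of the same exon in 7 other genes (mm10, GENCODE M21), 5′ to 3′, with each base that differs from H2-K1 in capitals. They are shown for their degree of likeness, and the placing of single reads was not examined.
H2-K1: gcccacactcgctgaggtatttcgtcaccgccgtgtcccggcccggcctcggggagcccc
H2-D1: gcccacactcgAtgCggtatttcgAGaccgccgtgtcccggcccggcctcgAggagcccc
H2-T23: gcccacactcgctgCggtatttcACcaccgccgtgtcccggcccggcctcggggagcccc
H2-Q4: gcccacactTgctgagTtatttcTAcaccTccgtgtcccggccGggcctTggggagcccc
H2-Q7: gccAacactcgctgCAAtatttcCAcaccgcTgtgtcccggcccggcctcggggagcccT
H2-T22: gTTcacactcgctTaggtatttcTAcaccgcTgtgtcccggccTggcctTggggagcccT
H2-T10: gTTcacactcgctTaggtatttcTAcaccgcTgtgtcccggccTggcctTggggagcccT
H2-M3: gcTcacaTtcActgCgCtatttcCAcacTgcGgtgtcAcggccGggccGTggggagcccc
In H2-K1 the stretch lies at chr17:33999944-34000003 on the minus strand and in H2-D1 at chr17:35263379-35263438 on the plus strand, where 5 of 60 bases differ. H2-T23 (chr17:36032363-36032422, minus) differed at 3, H2-Q4 (chr17:35379904-35379963, plus) at 7, H2-Q7 (chr17:35439452-35439511, plus) at 8 and H2-M3 (chr17:37270522-37270581, plus) at 13. H2-T22 (chr17:36042069-36042128, minus) and H2-T10 (chr17:36120816-36120875, minus) each differed from H2-K1 at 9 of the 60, and their letters are identical to each other. Over the whole coding sequence, H2-D1 was 90.5% identical to H2-K1 in a global alignment, H2-T23 81.0%, H2-Q4 75.9% and H2-M3 67.2%.

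The promoters were searched for 3 elements known from MHC genes. Those of 4 genes are printed from RefSeq (GRCm38.p6), 250 bases before to 50 after the annotated start on the gene's strand, because they belong to the light chain, the classical heavy chains and a class II chain. Capitals mark the motifs, searched on both strands: CCAAT (the Y box), GAAANNGAA (an interferon-response element) and GGGNNTTCC (an NF-kB site), and no matches overlapped here. They are B2m at chr2:122147437-122147736 (plus), H2-K1 at chr17:34000284-34000583 (minus), H2-D1 at chr17:35262844-35263143 (plus) and H2-Aa at chr17:34287774-34288073 (minus).
B2m: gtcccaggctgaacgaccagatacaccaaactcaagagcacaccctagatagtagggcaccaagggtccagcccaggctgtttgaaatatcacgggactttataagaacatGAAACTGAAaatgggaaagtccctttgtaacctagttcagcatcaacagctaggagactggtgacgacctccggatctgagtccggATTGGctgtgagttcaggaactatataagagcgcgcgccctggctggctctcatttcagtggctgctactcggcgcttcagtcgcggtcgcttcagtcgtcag
H2-K1: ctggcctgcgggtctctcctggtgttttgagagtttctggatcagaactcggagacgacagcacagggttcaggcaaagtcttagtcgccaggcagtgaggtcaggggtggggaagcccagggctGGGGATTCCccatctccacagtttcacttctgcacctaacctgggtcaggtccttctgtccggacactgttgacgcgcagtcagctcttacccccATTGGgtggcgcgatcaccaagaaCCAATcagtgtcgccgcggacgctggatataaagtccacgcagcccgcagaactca
H2-D1: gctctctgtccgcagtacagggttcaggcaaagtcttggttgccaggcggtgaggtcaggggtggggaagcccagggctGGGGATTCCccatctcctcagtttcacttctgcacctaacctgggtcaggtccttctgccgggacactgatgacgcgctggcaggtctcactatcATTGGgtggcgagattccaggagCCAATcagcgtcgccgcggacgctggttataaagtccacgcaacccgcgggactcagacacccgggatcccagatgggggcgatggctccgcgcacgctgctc
H2-Aa: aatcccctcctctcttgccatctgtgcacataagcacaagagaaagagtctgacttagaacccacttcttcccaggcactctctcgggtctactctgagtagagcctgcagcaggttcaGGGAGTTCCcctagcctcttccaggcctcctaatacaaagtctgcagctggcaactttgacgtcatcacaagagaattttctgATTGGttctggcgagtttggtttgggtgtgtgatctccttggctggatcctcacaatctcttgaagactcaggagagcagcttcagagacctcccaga
H2-K1 and H2-D1 each held a GGGNNTTCC match and a pair of CCAAT matches on opposite strands. B2m held 1 CCAAT and 1 GAAANNGAA, and H2-Aa 1 CCAAT and 1 GGGNNTTCC. The table covered 28 of the 42 genes with 31 windows, and CCAAT was in 27 of these 31, against 37.4% of all 32851 windows. GGGNNTTCC was in 9 of 31 windows, against 5.82% of all. These were windows of H2-Aa, H2-Oa and the heavy chain genes H2-K1, H2-D1, H2-Q4, H2-Q6, H2-Q7 and H2-M2. Windows of duplicated heavy chain genes can be alike, so the matches are not independent. GAAANNGAA was in 3 of 31 (9.68%), against 8.56% of all, and no window held all 3. Of the genes, 3 had 2 windows each, and those of H2-K1 and of H2-M9 overlap. Only these exact patterns were searched, so a window without a match may still hold another form of the element. A match is a run of letters and no measure of binding.

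Depth was 34919989 and 41206890 expected counts in replicates 1 and 2, of which the 42 genes together took 3465 and 4164. The authors deposited 2 quantifications of each library. The first, in the RSEM column format, gives expected counts and TPM (transcripts in every 1000000, scaled by length) from alignments to the transcriptome. The second, in the kallisto format, gives estimated counts and TPM from the reads. Through that scaling, levels of different genes can be set side by side within a quantification. Their TPM totals are filled differently: nuclear protein-coding genes held 43.4% and 42.0% of TPM in the first and 73.5% and 74.0% in the second, so a higher TPM in the second alone means little. Values below are from the first quantification, replicate 1 and then replicate 2, unless the second is named. Neuron, astrocyte and oligodendrocyte markers were present in full, with 7 of 7, 6 of 6 and 6 of 6 at 1 TPM or more in both libraries. All 10 microglial markers were too, summing to 203.3 and 200.6 TPM. Markers of other immune cells were sparse: 2 of 6 for border macrophages (summing to 5.50 and 5.22 TPM), 2 of 7 for dendritic cells (6.73 and 5.61), 1 of 6 for B cells (6.72 and 5.67) and 0 of 8 for T and natural killer cells (1.35 and 1.07). Clec9a and Xcr1 of the dendritic list and Cd3g, Cd8a, Nkg7 and Ncr1 of the T and natural killer list had 0 counts in both libraries. Of these, Xcr1, Cd3g and Cd8a were above 0 in the second quantification, at most 0.301 TPM. All 8 endothelial markers and all 5 red blood cell markers passed, summing to 104 and 92.1 TPM and to 609 and 676 TPM. Choroid plexus markers summed to 27.6 and 60.2 TPM, most of it Ttr. In tissue RNA, fewer cells of a type and less RNA per cell cannot be told apart.

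Of the 42 genes, 11 were at 1 TPM or more in both libraries, all 11 of them protein-coding, and 12 had a mean of at least 1 TPM. Among protein-coding genes only, 11 of the 35 of the list were at 1 TPM or more in both libraries, against 57.6% of all 22015 nuclear protein-coding genes. The 11 were B2m, H2-Ke6, Tapbp, H2-DMa, H2-K1, H2-D1, H2-T22, Tap2, H2-T23, Cd74 and Tap1, and H2-M3 reached 1 TPM in replicate 1 only. The second quantification put 16 genes at 1 TPM or more in both libraries, including the same 11.

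**Figure D1:**
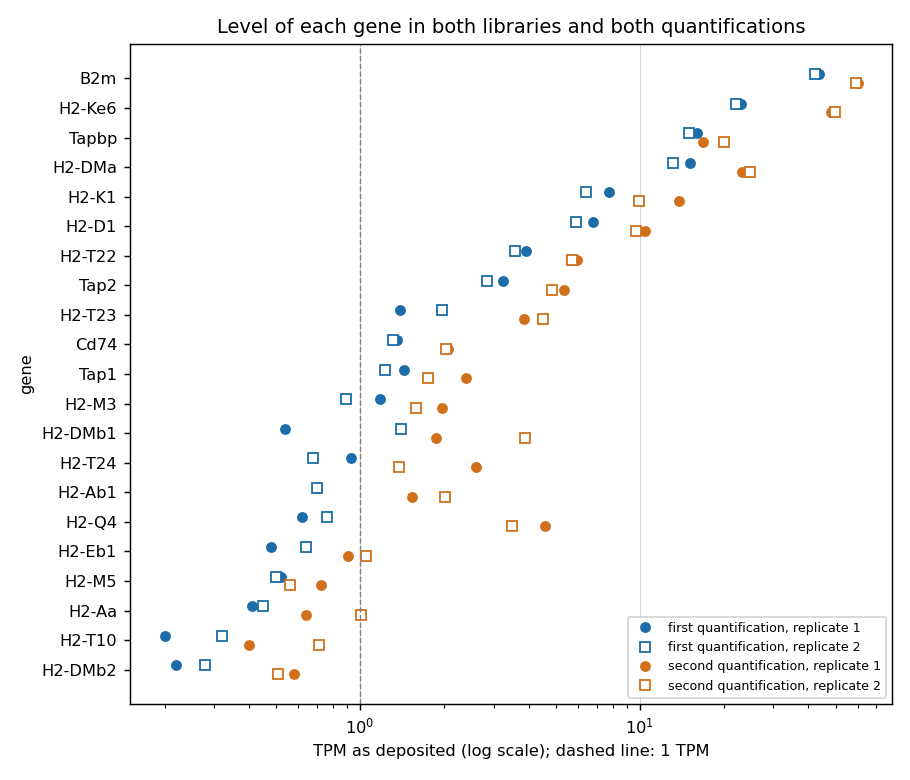
TPM of the 21 genes with a mean of at least 0.2 TPM in the first quantification, on a log axis, ordered by that mean; circles are replicate 1, squares replicate 2, blue the first and orange the second quantification, and the dashed line is 1 TPM. B2m stands highest in all 4 sets of points, and H2-Q4 has the widest gap between colours of the genes shown, from 0.62 and 0.76 to 4.56 and 3.49 TPM.

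Among class I genes the light chain stood far above each single heavy chain gene. B2m (ENSMUSG00000060802.8, chromosome 2, 122147686 to 122153083), encoding beta-2 microglobulin, was at 43.81 and 42.21 TPM (43.0 ± 1.13, SD, n = 2) from 802 and 965 counts. Only 10.6% of nuclear protein-coding genes had a higher mean. The classical heavy chain genes H2-K1 (chromosome 17, 33996017 to 34000347) and H2-D1 (35262730 to 35267499), which present peptides to CD8 T cells, were at 7.75 and 6.43 TPM and at 6.78 and 5.92 TPM. The ranges of H2-K1 and H2-D1 overlapped. B2m was 3.02 and 3.42 times the sum of these heavy chains, or 2.48 and 3.02 times in the second quantification. Over all class I heavy chain genes of the list, the ratio was 1.83 and 1.97, or 1.38 ± 0.180 (SD, n = 2) in the second. Whether loss of CAST reads differed between B2m and the heavy chains could not be measured.

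The order of H2-K1 and H2-D1 depended on which transcripts were counted. Expected counts were 155.11 and 201.68 for H2-K1 and 303.76 and 347.44 for H2-D1. TPM put H2-K1 ahead by 1.11 ± 0.0402 times (SD, n = 2). Of H2-K1's TPM, 38.8% ± 9.81 was on H2-K1-215, an annotated retained-intron transcript of only 457 bases, and short transcripts need few reads per TPM. Over protein-coding transcripts alone H2-K1 was at 3.55 and 4.11 TPM and H2-D1 at 6.34 and 5.92. In that setting their ranges did not overlap and the ratio turned to 0.627. In the second quantification, H2-K1-201, a protein-coding transcript, led with 26.2% ± 3.64.

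Non-classical heavy chains, which present restricted sets of ligands or bind receptors of innate lymphocytes, were led by the T region. Its 6 genes summed to 6.52 and 6.55 TPM. H2-T22, a ligand of gamma-delta T cell receptors, gave most of it at 3.93 and 3.59 TPM. H2-T23, which encodes Qa-1, the ligand of CD94/NKG2 receptors, was at 1.39 and 1.96 TPM, higher in replicate 2, from 52.36 and 85.48 counts. H2-T24 was at 0.93 and 0.68 TPM, and H2-T10, annotated as a polymorphic pseudogene, at 0.20 and 0.32. Of H2-T22's 31-base words, 67.4% also occur in another gene on either strand, 47.2% in H2-T10 alone, so the split of reads between the pair is uncertain.

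The M and Q regions were lower. H2-M3, which presents N-formylated peptides, was at 1.18 and 0.89 TPM from 38 and 36 counts, and H2-M5 at 0.52 and 0.50. The other 4 M genes of the list, H2-M1, H2-M2, H2-M9 and H2-M11, had 0 expected counts in both libraries. The 8 Q genes summed to 0.95 and 1.08 TPM, most of it H2-Q4 at 0.62 and 0.76. The pseudogene H2-K2 was at 0.30 and 0.07 TPM, from 9.02 and 3.04 counts.

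Peptide transport and loading genes were uneven. Tapbp (chromosome 17, 33915899 to 33929292), encoding tapasin, was at 15.97 and 15.02 TPM. The TAP transporter subunits were lower, Tap2 at 3.23 and 2.84 TPM and Tap1 at 1.43 and 1.23. Tap2 was 2.26 and 2.31 times Tap1, and Tapbp 4.94 and 5.29 times Tap2. In the second quantification these ratios were 2.24 and 2.78, and 3.14 and 4.12. Over all transcripts, none of the 3 genes' ranges overlapped another's in either quantification. Over protein-coding transcripts alone, the order of Tap2 and Tap1 turned in the first quantification. There Tap2 was at 0.26 and 0.69 TPM and Tap1 at 1.11 and 0.98. In the second quantification Tap2 stayed higher over coding transcripts, at 2.90 and 2.45 TPM against 1.52 and 1.23.

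Class II genes were low while one chaperone subunit was not. The class II chain genes H2-Ab1, H2-Eb1 and H2-Aa were at 0.70 and 0.70, 0.48 and 0.64, and 0.41 and 0.45 TPM. Their counts were 17 and 18, 10 and 18, and 11 and 14. On protein-coding transcripts H2-Eb1 had 0 and 0 TPM, or 0.281 and 0.156 in the second quantification. All 6 class II chain genes together summed to 1.59 and 1.79 TPM, and H2-Eb2, H2-Pa and H2-Pb had 0 expected counts. Cd74 (chromosome 18), the invariant chain that guards the class II groove, was at 1.35 and 1.31 TPM from 40 and 46 counts. H2-DMa, the alpha chain of the H2-DM peptide exchange catalyst, was at 15.12 and 13.10 TPM. Its beta chain partners were far lower, H2-DMb1 at 0.54 and 1.40 and H2-DMb2 at 0.22 and 0.28 TPM. H2-DMa was thus 19.9 and 7.80 times the sum of both, and 9.51 and 7.32 times the sum of H2-Aa, H2-Ab1 and H2-Eb1. In the second quantification these ratios were 9.43 and 5.63, and 7.48 and 6.07. The H2-DO genes, whose product restrains H2-DM, had few counts, H2-Oa 2 and 5 and H2-Ob 3 and 3.

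The transactivators were near the limit of detection. Nlrc5, the class I transactivator, was at 0.14 and 0.24 TPM from 7 and 12 counts. Ciita, the class II transactivator, had 1 count in each library, which is under the floor of 3 counts used here, and 12 and 5 estimated counts in the second quantification. H2-Ke6 was the second highest gene of the list at 23.05 and 22.05 TPM, from 380.09 and 459.86 counts. However, 76.1% of its words lie in the overlapping gene Gm20427 on the same strand. Gm20427 was itself at 2.67 and 2.37 TPM, from 206.86 and 221.79 counts, or at 10.8 and 10.3 TPM in the second quantification.

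**Figure D2:**
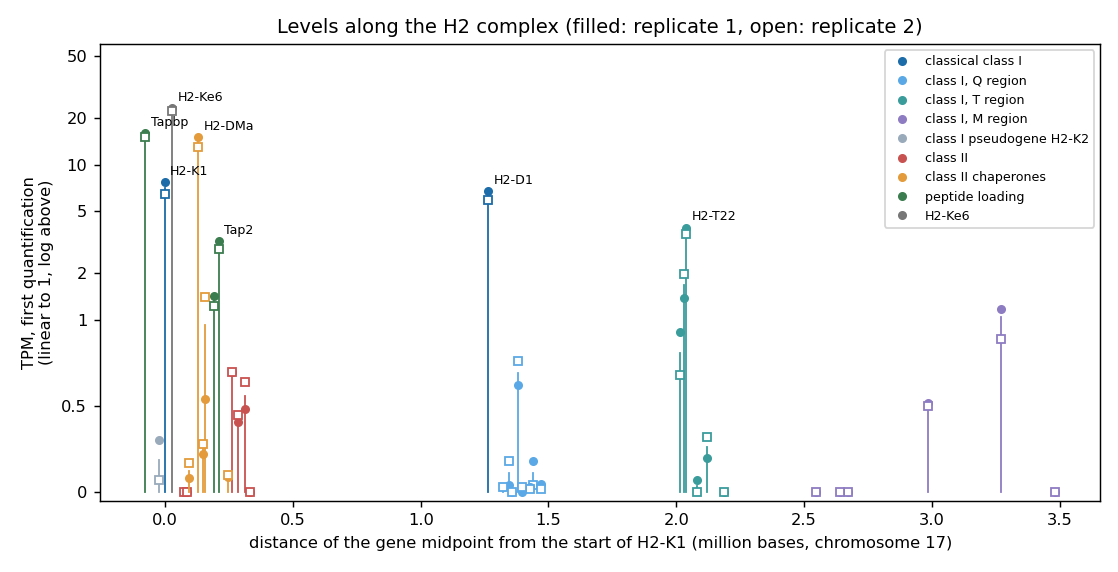
Mean TPM (stems) and the value in each library (filled circles replicate 1, open squares replicate 2) for the 38 genes on chromosome 17, against the distance of the gene midpoint from the start of H2-K1 in Mb; the vertical axis is linear to 1 TPM and logarithmic above. Genes above 2 TPM are H2-Ke6, Tapbp, H2-DMa, H2-K1 and Tap2 near the H2-K1 end, H2-D1 and H2-T22, while the genes of the Q and M regions stay near or under 1 TPM.

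The remaining genes were under 1 TPM. Of 30 genes with a mean under 1 TPM, 11 had at least 10 expected counts and 19 had fewer, and 9 had 0 in both libraries. Of these 9, 5 genes, H2-Pa, H2-Eb2, H2-M1, H2-M9 and H2-M11, also had 0 estimated counts in the second quantification. A count of 0 allows a share of up to 8.59e-06% of counts in replicate 1 and 7.28e-06% in replicate 2, by counting error only.

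Between the libraries, 9 of the 42 genes had at least 200 expected counts and could be compared. None of the 9 differed by 2-fold, where 0.825% of 12962 genes with as many counts did. TPM was lower in replicate 2 for all 9, with a median log2 ratio of -0.19 against -0.07 over all 12962. The counting interval (exact Clopper-Pearson, 95%) of each of the 9 ratios included 1. H2-K1 had the lowest ratio, 0.830 (0.671 to 1.03), and B2m the highest, 0.963 (0.876 to 1.06). The common direction held in some settings and not in others. All 9 were lower with expected counts scaled by spike-in totals and with rescaled TPM, 5 were lower with edgeR TMM factors on expected counts, 5 with DESeq2 size factors, and 6 in the second quantification. H2-K1 stood at 0.830 by TPM, at 0.966 on expected counts with spike-in scaling and at 1.12 on expected counts with TMM factors, where counts also leave out the effective length of the gene, 832 and 1044 bases. The share of its TPM on the short H2-K1-215 was 45.8% and 31.9% in the same libraries. Of the 6 choroid plexus markers only Ttr and Kl had 200 counts. Ttr, the gene for the plasma carrier transthyretin, passed 2-fold at 23.48 and 55.09 TPM, while Kl was at 3.43 and 3.38. The others had fewer counts and were higher in replicate 2. Folr1 was at 0 and 0.76 TPM, Clic6 at 0.31 and 0.48, Aqp1 at 0.26 and 0.30 and Kcne2 at 0.11 and 0.17. The part of the choroid plexus in the ratios of the 9 genes was not tested. With 1 library against 1, a ratio has no replicate check and no p-value was computed.

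Below the 200-count minimum, H2-DMb1 showed the widest gap of the class II chaperones, 0.54 against 1.40 TPM from 15.91 and 31.98 counts. In the first quantification its protein-coding transcript H2-DMb1-201 was at 0.49 and 0.53 TPM. There the gap lay on H2-DMb1-202, a retained-intron transcript of 522 bases, at 0.05 and 0.87. In the second quantification both were higher in replicate 2, the coding transcript at 0.372 and 0.688 TPM and the retained-intron one at 1.40 and 3.18. H2-DMb1 shares 31.4% of its words with H2-DMb2.

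The 2 quantifications were set against each other after each was rescaled to 1000000 TPM over nuclear protein-coding genes. Of 20 genes with a rescaled mean of at least 1 in either, 2 were at least 2-fold higher in the second quantification in both libraries and 0 were lower, against 2.89% and 0.751% of 14375 protein-coding genes. Both were Q-region genes. H2-Q7 was among the 20 only through its level in the second quantification, so its call is partly built into the filter. H2-Q4 went from 1.43 and 1.81 to 6.21 and 4.72 rescaled TPM, 3.37-fold as a geometric mean. In counts this was 29.14 and 38.45 against 129 and 111. H2-Q7, which encodes Qa-2, went from 0.415 and 0.0953 to 1.33 and 0.764 rescaled TPM, 5.07-fold, from only 6.50 and 3.02 expected counts. The median log2 difference was -0.02 over the 20 genes and -0.07 over the 14152 protein-coding genes with values above 0 in both.

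H2-Q10 and H2-Q6, outside that filter, went the same way in counts. H2-Q10, which in the mouse encodes a secreted liver protein, had 4.73 and 1.12 expected counts and 31.7 and 14.5 estimated counts. H2-Q6 had 1.26 and 1.04 expected counts and 17.3 and 10.9 estimated counts. As deposited, the Q region summed to 0.95 and 1.08 TPM in the first and to 7.36 and 4.91 TPM in the second quantification. In the second, 53.3 and 31.3 of the estimated counts of H2-Q7 lay on H2-Q7-206, a retained-intron transcript of 4209 bases, and 29.7 and 14.5 of those of H2-Q10 on H2-Q10-203, one of 4328 bases. For H2-Q4 most lay on the protein-coding H2-Q4-201, with 104 and 111. B2m, which shares no 31-base word with another gene, also differed, with 802 and 965 expected counts against 560 and 671 estimated counts, a ratio of 0.697.

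**Figure D3:**
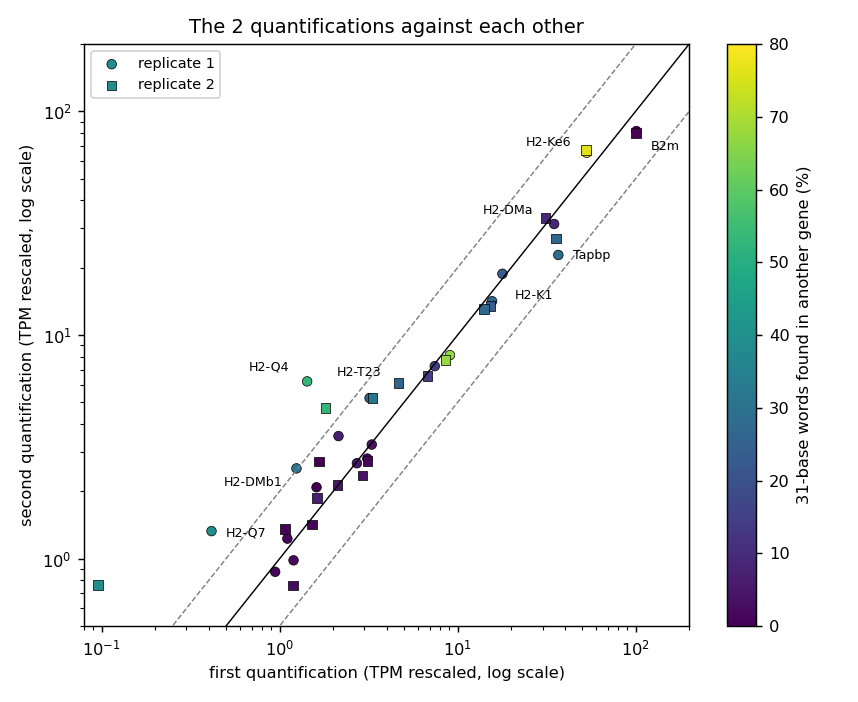
TPM rescaled over nuclear protein-coding genes in the second quantification against the first, both on log axes, for the 20 tested genes in replicate 1 (circles) and replicate 2 (squares); colour gives the percent of each gene's 31-base words found in another gene, the solid line is equality and the dashed lines 2-fold. H2-Q4 and H2-Q7 lie above the upper dashed line in both libraries, and most other points lie between the dashed lines.

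Shared sequence differed by region of the complex. Words were matched on both strands, so the shares include sequence held in common with antisense genes. For H2-T22, 27.7% of the words occur in A930015D03Rik, a gene of the opposite strand. The share of a gene's 31-base words that occur in any other annotated gene had a median of 36.0% over the Q genes (1.90% to 57.8%), 23.6% over the T genes (4.43% to 67.4%), 24.8% over H2-K1 and H2-D1 and 3.76% over the M genes. Over the class II chains the median was 0.988%. Of the 42 genes, 7 had over 50% of their words in another gene, and 18 had under 5%. H2-Q4 shared 53.0%, 19.5% with H2-Q6 and 16.8% with its antisense neighbour Gm11131. H2-D1 shared 13.8% of its words with H2-K1.

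Overlapping genes add a further limit on single values. Of the 42 genes, 17 overlap another annotated gene, 15 of them one on the opposite strand and 6 one on the same strand. These overlaps are between whole gene spans, introns included, so they exceed the shared transcript sequence. By span, H2-DMa shares 3094 bases with Brd2, a bromodomain protein gene of the opposite strand at 83.95 and 79.66 TPM. Of the words of H2-DMa, 9.23% also occur in Brd2. Tap1 overlaps Psmb9 by 212 bases and Ciita overlaps Dexi by 25888. Of the words of Tap1, 3.26% occur in Psmb9, and of those of Ciita, 2.28% occur in Dexi. The libraries were stranded per the labels, but whether counting used strand is not given in the sources used here.

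Several of the 12 genes with a mean of at least 1 TPM had much of their TPM on transcripts other than the plain coding form. Their median protein-coding share was 82.9% in the first and 81.8% in the second quantification. Of the 10 with more than 1 annotated transcript, 6 had the same leading transcript in both quantifications, against 76.3% of 11648 multi-transcript protein-coding genes at that level. The leading transcript was not protein-coding for 2 of them in the first quantification, H2-K1 and Tap2, and for 1 in the second, Tap2. Over the 11648 genes these shares were 7.53% and 9.49%.

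Tap2 showed this most plainly. In the first quantification 91.8% and 75.8% of its TPM was on Tap2-202, a transcript that keeps the intron at chromosome 17, 34212068 to 34212229 (162 bases). In the second the share was 47.5% ± 2.58, and that of the coding Tap2-201 was 42.1% and 35.9%. Counted over protein-coding transcripts only, Tap2 was at 0.26 and 0.69 TPM, against 3.23 and 2.84 over all transcripts. Total RNA holds unspliced and partly spliced RNA, and its part in this share was not tested.

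H2-DMa has starts at distinct places, and the quantifications disagreed on their use. Its 5 upstream transcripts start between 34119541 and 34122846, beside the start of Brd2, and 3 downstream ones from 34135628 on. From H2-DMa-201 to H2-DMa-205 the distance between starts is 12796 bases. The upstream set had 29.4% and 26.3% of the gene's TPM in the first quantification and 62.2% and 54.0% in the second. The leading transcript was the downstream H2-DMa-205 (66.1% ± 6.46) in the first and the upstream H2-DMa-201 (36.5% ± 3.14) in the second. Tapbp and H2-T22 also changed leader, from Tapbp-206 (50.3% ± 3.41) to Tapbp-201 (65.3% ± 7.67) and from H2-T22-201 (46.1% ± 4.21) to H2-T22-203 (55.0% ± 3.66). H2-D1-202 led in both, with 93.8% ± 4.56 and 94.8% ± 0.717.

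**Figure D4:**
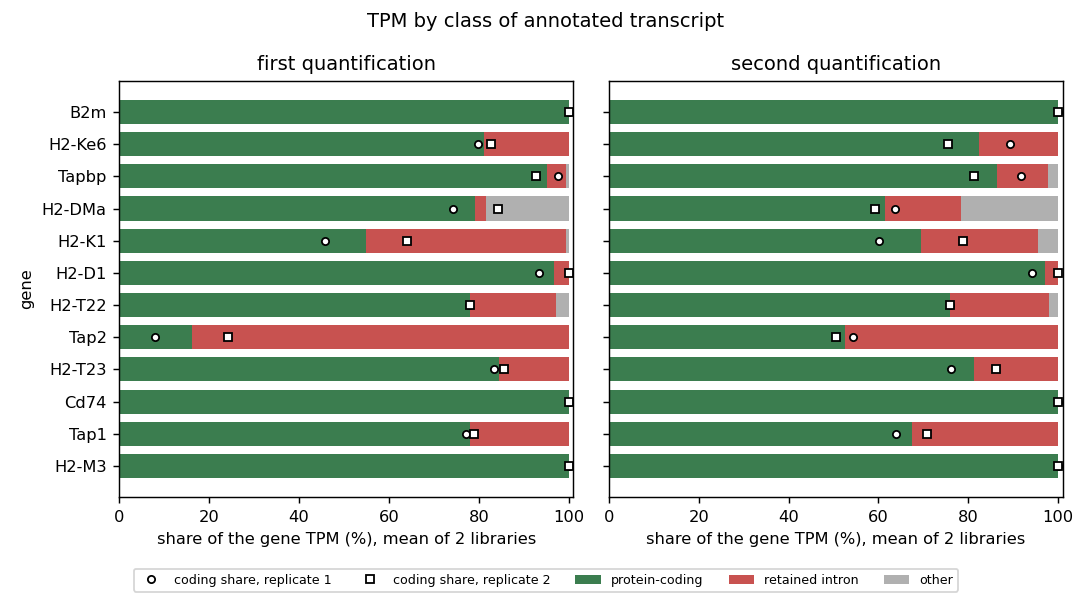
Share of each gene's TPM on protein-coding (green), retained-intron (red) and other annotated transcripts (grey) for the 12 genes with a mean of at least 1 TPM, as the mean of both libraries, in the first (left) and second (right) quantification; points give the protein-coding share in replicate 1 (circles) and replicate 2 (squares). Tap2 is mostly red on the left and divided on the right, and H2-K1 has the next largest red share on the left.

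Most other genes of the pathway were at 1 TPM or more. Of 9 proteasome genes, which supply class I peptides, 8 were at 1 TPM or more in both libraries, led by the constitutive catalytic subunits Psmb7 (85.69 and 94.94 TPM), Psmb5 (87.61 and 88.54) and Psmb6 (75.11 and 85.58). The exception was Psmb9, an interferon-induced catalytic subunit, at 0.76 and 0.66 TPM. The other interferon-induced catalytic subunits differed widely, Psmb8 at 1.15 and 1.33 TPM and Psmb10 at 27.17 and 28.67. Psmb8, Psmb9 and Psmb10 were named after their values were seen. All 7 loading and folding genes passed, led by Calr at 218 and 224, Canx at 166 and 178 and Hspa5 at 149 and 145 TPM, which encode chaperones of the endoplasmic reticulum. All 8 matched class II processing genes passed, led by the lysosomal proteases Ctsb (156 and 174), Ctsd (133 and 140) and Ctsl (47.06 and 52.87 TPM). So did all 9 factors of the MHC promoters, led by Nfyb (28.15 and 23.72), Rfxap (24.89 and 25.79) and Creb1 (20.69 and 20.99), and all 12 interferon signalling genes, led by Jak1 (48.51 and 49.17), Ifngr2 (25.67 and 29.20) and Ifnar1 (21.97 and 19.82 TPM).

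Fewer genes passed in the lists of class I-like molecules, costimulation and class I receptors. Of 9 class I-like genes outside the H2 symbols 1 passed, Fcgrt, the neonatal Fc receptor that also pairs with B2m, at 7.84 and 8.53 TPM, followed by Hfe at 0.96 and 1.47 and Cd1d1 at 0.95 and 0.85. Of 5 costimulation genes 1 passed, Icosl at 3.18 and 3.59 TPM, before Cd86 at 0.43 and 0.41 and Cd40 at 0.56 and 0.27. Of 9 class I receptor genes 0 passed, with Lilrb4a at 0.16 and 0.09, Klrd1 at 0.17 and 0 and Pirb at 0.04 and 0.05 TPM. Cd8a, Cd8b1, Cd160 and Klrc1 had 0 counts in both libraries. In the second quantification Cd8a was at 0.301 and 0.139 TPM and Cd160 at 0 and 0.0587.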

How the data were processed

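The study measured total RNA of 2 hippocampus libraries of 1 group, stranded and ribosomal-RNA-reduced per the labels. Deposited notes name mm10 and GENCODE M21. The aligner is not given in the sources used here. The authors deposited, per the file headers, expected counts and TPM per gene and transcript, with the percent of the gene TPM on each transcript, made from transcriptome alignments, and a second table of estimated counts and TPM made from reads. The deposited posterior SD of each count, a score, was not used.

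Here, transcript TPM of the second table was summed per gene. Ratios of libraries needed 200 expected counts over both, with a floor of 3 counts, and calls a 2-fold difference. Calls between quantifications needed 2-fold the same way in both libraries. Intervals are exact Clopper-Pearson 95% intervals scaled to the TPM ratio and cover counting error only. Words of 31 bases came from the annotated transcripts and were matched to those of other genes on both strands. Scripts used R 4.3.3 and Python 3.11.15 with matplotlib 3.10.9, scipy 1.17.1, Biopython 1.88, numpy 2.4.6 and pandas 2.3.3. As alternative scalings, edgeR 4.0.16 gave TMM factors on expected counts and DESeq2 1.42.0 size factors on expected counts rounded to whole numbers. The ratio and quantification calls were tested on simulated data. Other alternatives were the second quantification, rescaled TPM, spike-in totals, other filters and thresholds, coding transcripts only, other word lengths and each library alone. Genes with a mean of at least 1 TPM are named with both values, lower ones from 10 counts or where the quantifications disagree by 2-fold, and 3 per pathway list by mean TPM. Genes under 10 counts that are named outside this rule were chosen after their values were seen. The genes, lists and rules were chosen with earlier results of these data known. Signal tracks were not used here, no protein sequences were used, and there is no test between groups.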

Additional observations from a re-analysis of the deposited data

Results flagged for a closer look

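The symbol rule leaves out 10 H2 symbols that carry a dot or a further hyphen. H2-T-ps, a class I pseudogene of the T region, had 6.16 and 10.31 expected counts in replicates 1 and 2, and H2-M6-ps, a pseudogene of the M region, had 4 and 4. Both are above the 3 counts that a count of 0 allows, in both libraries and both quantifications. H2-T-ps holds 12.4% of the 31-base words of H2-T23, so its counts share the uncertainty of that gene. H2-Ea-ps had 3 and 3 expected counts, at that limit, and the 7 other symbols had 0 in both quantifications.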

How the results depend on the processing

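No paired analysis was possible because there is a single group, so no groups share replicate numbers. Role sums moved by more than the SD of the libraries in 3 settings. Rescaling and leaving out transcripts change the sums by construction, and for the second quantification the cause was not tested. With the second quantification, with rescaled TPM, and over protein-coding transcripts only, in this order, the summed TPM was 21.9, 31.5 and 9.96 for H2-K1 and H2-D1, 6.13, 2.38 and 0.860 for the Q region, 12.8, 15.3 and 5.17 for the T region and 2.46, 3.61 and 1.25 for the M region. It was 3.70, 3.96 and 0.970 for class II chains, 29.9, 39.5 and 13.3 for their chaperones, 25.5, 46.5 and 16.3 for peptide loading, 0.288, 0.494 and 0.0750 for the transactivators, 48.9, 52.8 and 18.3 for H2-Ke6 and 0.391, 0.429 and 0 for H2-K2. B2m had 59.6 and 100.8 in the other settings and the same 43.0 over protein-coding transcripts. Of the 12 highest genes, 10 stayed among the 12 highest in the second quantification, 12 with rescaled TPM and 11 over protein-coding transcripts, where H2-K1 over H2-D1 turned to 0.627.

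Detection in both libraries rose from 11 to 17 genes at 0.5 TPM and to 18 with rescaled TPM. With no count minimum, 4 genes passed 2-fold between the libraries, H2-DMb1, H2-K2, H2-Q7 and H2-Q2, all under 50 counts. Genes lower in replicate 2 numbered 5 of 9 with TMM factors and 5 with DESeq2 size factors, against 9 with spike-in totals and 9 with rescaled TPM. Genes at least 2-fold higher in the second quantification numbered 6 with TPM as deposited, 1 at a 5 TPM minimum and 0 at 4-fold. They numbered 1 to 3 with a single library; without replicate 1, H2-Q4 alone remained of the tested genes, since H2-Q7 then missed the 1 TPM minimum. With words of 75 bases, 1 gene had over 50% shared. Low counts limit all genes under 1 TPM.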
